A study of Mus musculus with 3 samples.

Results

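The clustered protocadherins are 58 genes on mouse chromosome 18, from 36930285 to 37841873 (mm10), whose symbols start with Pcdha, Pcdhb or Pcdhg. They were taken by symbol and position from a RefSeq table of 49997 genes (GRCm38.p6, which is mm10). The alpha cluster has 14 members, the beta cluster 22 and the gamma cluster 22, of which 1, Pcdhgb8, is annotated as a transcribed pseudogene. The mark examined was H3K27ac, acetylated lysine on histone H3 that is typical of active regulatory DNA. It had been mapped by ChIP-seq in the beta-cell-like line MIN6, derived from a mouse insulinoma. Per the labels, cells had been made to express Cas9 from a lentivirus under blasticidin and then received a lentiviral guide RNA against Arid1a under puromycin. Arid1a encodes ARID1A, part of the SWI/SNF complexes that move nucleosomes. The 3 groups were clones grown from single cells and assigned by PCR and Western blotting as Wildtype, as Heterozygous ARID1A KO or as Homozygous ARID1A KO. Each group had 1 library, so clone and genotype cannot be told apart, no difference has a replicate check, and no test across samples or p-value was possible. Peak names of the wild-type library carry a tag, GAL4, that the labels do not explain. Whether that clone had received the Arid1a guide or another one is therefore not settled here, and in every comparison with wild type a difference in guide cannot be told apart from genotype.

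Clustered protocadherins are cell adhesion proteins best known from neurons, where each cell expresses a small, partly random choice of them and uses the combination to tell its own branches from those of its neighbours. In the alpha and gamma clusters every variable exon has its own promoter and is spliced to constant exons at the end of the cluster, while beta genes consist of a single exon each. Promoter choice involves DNA methylation, CTCF, cohesin and distant enhancers, and the C-type genes Pcdhac1, Pcdhac2, Pcdhgc3, Pcdhgc4 and Pcdhgc5 are generally less subject to random choice than the others.

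The wild-type list held 41490 peaks, the heterozygous list 31365 and the homozygous list 34298, of which 43, 36 and 47 lay in the protocadherin window. Read totals were not given in sources used here. The number of reads stacked at each summit, called the pile-up below, and the local background were solved from each peak's deposited fold enrichment and −log10 p. The lowest background was 2.17 reads in the wild-type clone and 1.73 in either knockout, and pile-ups are not scaled to each other. At that lowest background pile-ups down to 11, 11 and 10 reads were listed. A beta cell identity check at annotated gene starts gave a peak for 7 of 7 beta cell markers in the wild-type clone, 5 in the heterozygous clone and 6 in the homozygous one, with Pax6 lacking one in both knockouts and Pdx1 in the heterozygous one. The beta list had 10 genes, and Ins2, Mafa and Slc30a8 had no start in the table used. The 3 delta and PP markers had no peak, nor had Col1a2, the 1 fibroblast marker of 3 with a start. Of 4 acinar markers only Cela1 had one, in the heterozygous clone, and Krt7, the 1 duct marker of 3 with a start, had one in both knockouts. Of the 2 alpha cell markers with a start, of 4 listed, 1, 1 and 2 had a peak. Of the 4 neuron markers with a start, of 5 listed, 4, 3 and 3 had one. In the wild-type clone the check thus did not tell beta cell from neuron markers. Over protein-coding genes with 1 annotated start, 50.7%, 47.7% and 48.2% had a peak at that start. Markers were counted at any annotated start, so the measures differ.

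A member was called acetylated where a listed peak overlapped the 1000 bp on either side of its start by at least 1 bp. The gene table gives no strand, and the lower coordinate was taken as the start. Alpha genes share their upper end, at 37187657 to 37187663, except Pcdha6, which ends at 37188897. Gamma genes do so at 37841863 to 37841873, except Pcdhgb8, which ends at 37840489. The direction of the beta genes is background knowledge. Acetylated starts were found for 27 of 58 members in the wild-type clone (46.6%, exact Clopper-Pearson 95% interval 33.3 to 60.1%), 23 in the heterozygous clone (39.7%, 27.05 to 53.4%) and 30 in the homozygous one (51.7%, 38.2 to 65.0%). Among 14730 protein-coding genes with 1 annotated start, the share was 50.7% in the wild-type clone, 47.7% in the heterozygous and 48.2% in the homozygous clone. The share over all members was thus near that of other genes. The alpha share was above it and the gamma share below it in each library. For alpha in the heterozygous clone the exact interval, 41.9 to 91.6%, held the 47.7% of other genes. Intervals cover counting error only. The variable exons are similar in sequence, and the placement of 75 bp reads that match several of them was not given in sources used here. Values of single members are uncertain to that extent.

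**Figure D1:**
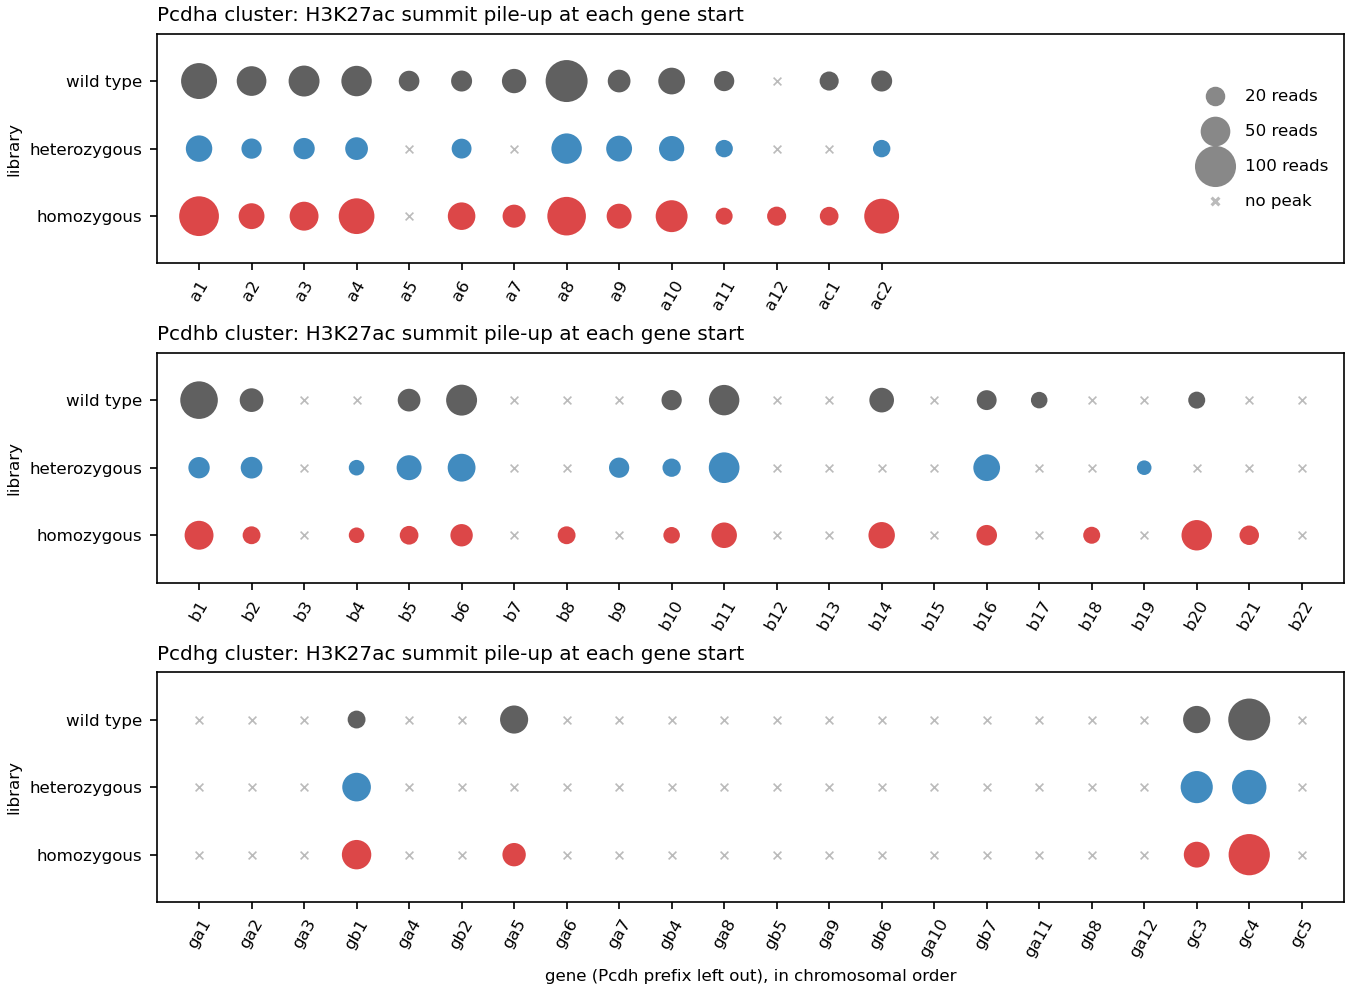
Each circle is the strongest H3K27ac peak within 1000 bp of a gene start, with its area proportional to the summit pile-up in reads. Rows are the 3 libraries, columns the 58 genes in chromosomal order, and a grey cross marks a gene with no listed peak. Alpha starts are mostly filled in every row, beta starts are filled in changing combinations, and gamma starts are empty except for Pcdhgb1, Pcdhga5, Pcdhgc3 and Pcdhgc4.

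In the alpha cluster 13 of 14 starts were acetylated in the wild-type clone, 10 in the heterozygous and 13 in the homozygous clone. The alpha shares were 92.9% (exact interval 66.1 to 99.8%), 71.4% (41.9 to 91.6%) and 92.9% (66.1 to 99.8%). Of these intervals only the heterozygous one held the share of other genes. Across the clusters 20 of 58 members were acetylated in all 3 libraries (34.5%), beside 45.3% of other genes. All 14 alpha starts were acetylated in at least 1 library and 10 in all 3, namely Pcdha1, Pcdha2, Pcdha3, Pcdha4, Pcdha6, Pcdha8, Pcdha9, Pcdha10, Pcdha11 and the C-type gene Pcdhac2. In the beta cluster the counts were 10, 10 and 13 of 22, with 7 genes in all 3 libraries: Pcdhb1, Pcdhb2, Pcdhb5, Pcdhb6, Pcdhb10, Pcdhb11 and Pcdhb16. The beta shares were 45.5% (exact interval 24.4 to 67.8%), 45.5% (24.4 to 67.8%) and 59.1% (36.4 to 79.3%). Each interval held the share of other genes, 50.7%, 47.7% and 48.2%. No library had a peak at Pcdhb3, Pcdhb7, Pcdhb12, Pcdhb13, Pcdhb15 or Pcdhb22. The gamma cluster had 4, 3 and 4 acetylated starts of 22. These were Pcdhgb1 and the C-type genes Pcdhgc3 and Pcdhgc4 in all 3 libraries, and Pcdhga5 in the wild-type clone and the homozygous library. The gamma shares were 18.2% (5.19 to 40.3%), 13.6% (2.91 to 34.9%) and 18.2% (5.19 to 40.3%). Each interval lay below the share of other genes.

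**Figure D2:**
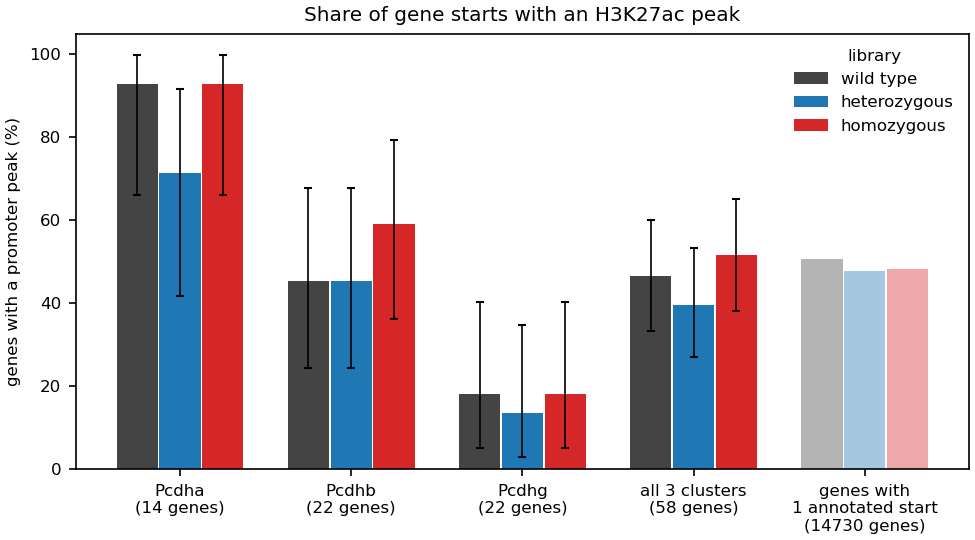
Bars give the percentage of genes with an H3K27ac peak within 1000 bp of the start, for each cluster, for all 58 members and for each library, with exact 95% binomial intervals, beside the same share among 14730 other genes in pale bars (no interval drawn). The alpha bars reach 92.9%, 71.4% and 92.9%, and the gamma bars 18.2%, 13.6% and 18.2%.

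By number of members, the longest run without acetylated starts lay in the middle of the gamma cluster. By distance a run of 4 members, Pcdhb22 to Pcdhga3, was longer, with 166620 bp between the starts of Pcdhb21 and Pcdhgb1. The 12 consecutive members from Pcdhga6 to Pcdhga12 (gamma A genes interleaved with Pcdhgb4, Pcdhgb5, Pcdhgb6, Pcdhgb7 and Pcdhgb8) had no peak at their starts in any library, over the 112035 bp between the starts of Pcdhga5 and Pcdhgc3. Of the 12 gamma A genes 1, 0 and 1 were acetylated, and of the 7 gamma B genes 1 in each library. Upstream of Pcdhgb1 the starts of Pcdhga1, Pcdhga2 and Pcdhga3 were also without a peak, as were Pcdhga4 and Pcdhgb2 between Pcdhgb1 and Pcdhga5. Among the 5 C-type genes of both clusters, 4 were acetylated in the wild-type clone, 3 in the heterozygous and 4 in the homozygous clone, and only Pcdhgc5 had no peak in any library. With so few genes the exact intervals were wide, at 28.4 to 99.5%, 14.7 to 94.7% and 28.4 to 99.5%. They held the shares of other genes, 50.7%, 47.7% and 48.2%.

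The strongest alpha starts by −log10 q within their lists were Pcdha1 and Pcdha8, both in all 3 libraries. Pcdha1, whose start is at 36930285, had a summit pile-up of 85 reads in the wild-type clone, 46 in the heterozygous clone and 104 in the homozygous one. The authors' fold enrichment there was 17.6, 14.3 and 16.6, at percentiles 99.7, 98.2 and 98.8 of all peaks of the respective list. Folds, p and q are the authors' own values and are ranked here only within a list. Pcdha8, with its start at 36992467 in the table, had pile-ups of 116, 61 and 98 reads and folds of 14.4, 11.4 and 13.7. Both genes lay near the top of each list by fold, and their −log10 q stood at percentiles of 79.6 to 95.9. Pcdha4 had pile-ups of 61, 34 and 84 reads, Pcdha3 63, 30 and 55, and Pcdha10 47, 42 and 67. Among the others, Pcdha2 had 58, 27 and 44 reads, Pcdha9 34, 44 and 41, and Pcdha6 29, 26 and 50. Pcdha11 had 27, 20 and 19 reads and, of the 9 alpha genes other than C-type acetylated throughout, the lowest −log10 q in each library. Pcdhac2, whose protein is known for the spacing of serotonergic axons, had 29, 20 and 80 reads over backgrounds of 4.10, 2.34 and 11.5 reads, with folds of 5.88, 6.29 and 6.46.

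The remaining 4 alpha starts were not acetylated throughout. Pcdha7 had a peak in the wild-type clone (39 reads, fold 10.5) and in the homozygous clone (35 reads, fold 10.2) and none in the heterozygous one. The same held for Pcdhac1, with 24 reads and a fold of 5.87 in the wild-type clone and 23 reads and a fold of 7.32 in the homozygous clone. These 2 peaks were not at the same place. The wild-type summit of Pcdhac1 lay at -415 bp from its start, and the homozygous library had 2 peaks, with summits at -303 bp and 35 bp. The 23 reads belong to the peak at 35 bp, where wild type had none. The homozygous peak that overlapped the wild-type one, at -303 bp, had 19 reads and a fold of 6.17. Pcdha5 was acetylated in the wild-type clone alone, at 36960310 to 36960808 with 28 reads and a fold of 9.14. Pcdha12 had a peak in the homozygous clone alone, at 37020190 to 37020593 with 24 reads and a fold of 9.14. The heterozygous library thus had no alpha start of its own and lacked Pcdha5, Pcdha7, Pcdha12 and Pcdhac1.

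Of the 16 beta starts acetylated anywhere, 9 were not acetylated in every library. Among the shared ones, Pcdhb1, the first beta gene, had 93 reads in the wild-type clone, 30 in the heterozygous and 55 in the homozygous clone, over backgrounds of 9.10, 2.44 and 5.40 and with folds of 9.31, 9.01 and 8.75. Pcdhb6 had 63, 51 and 33 reads, Pcdhb11 61, 62 and 43, and Pcdhb5 34, 41 and 23. Pcdhb2 had 37, 31 and 21 reads, Pcdhb16 26, 47 and 28, and Pcdhb10 27, 22 and 18. No beta gene had a peak within 1000 bp of its other end in any library, and the genes are 2340 to 5271 bp long.

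The other 9 acetylated beta starts had a peak in 1 or 2 libraries. Pcdhb14 had 40 reads and a fold of 12.9 in the wild-type clone, 46 reads and a fold of 14.2 in the homozygous clone, and no peak in the heterozygous one. Pcdhb20 had the same pattern with 19 reads and a fold of 6.30 in the wild-type clone and 61 reads and a fold of 13.0 in the homozygous clone, in which it was the strongest beta start by −log10 q. Starts acetylated in the homozygous clone alone were Pcdhb21 (25 reads, fold 9.51), Pcdhb8 (21 reads, fold 8.04) and Pcdhb18 (19 reads, fold 7.25). Those of the heterozygous library alone were Pcdhb9 (27 reads, fold 8.38) and Pcdhb19 (14 reads, fold 5.49). Pcdhb4 had 16 reads in either knockout, with folds of 5.78 and 6.22, and no peak in the wild-type clone. Pcdhb17 had 18 reads and a fold of 5.99 in the wild-type clone alone. Apart from Pcdhb14 and Pcdhb20, none of these peaks had more than 27 reads.

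Of the gamma starts, Pcdhgb1 had 21 reads and a fold of 6.94 in the wild-type clone, 54 reads and a fold of 12.1 in the heterozygous clone, and 57 reads and a fold of 12.9 in the homozygous one. The fold stood at percentile 68.6 of the wild-type list, 94.97 of the heterozygous list and 94.0 of the homozygous list. Pcdhga5, which starts at 37694375, showed a different combination, with 52 reads and a fold of 14.8 in the wild-type clone at 37694335 to 37694861, 36 reads and a fold of 10.8 in the homozygous clone, and no peak in the heterozygous one. It was the strongest by −log10 q in the wild-type clone among the 7 wild-type starts that 1 or both knockouts lacked, at percentile 79.1 of the list. Pcdhgc3 had 49, 68 and 44 reads. Pcdhgc4, known to be needed for the survival of certain neurons, had 116, 78 and 112 reads. Its peaks were the broadest of any member, 1892, 1768 and 1720 bp wide. The backgrounds were 17.0, 14.3 and 16.8 reads and the folds 6.5, 5.18 and 6.33. Its summit lay at 528 bp from the start in the wild-type clone, 487 bp in the heterozygous and -328 bp in the homozygous one. The homozygous reads were thus not stacked at the same place.

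Set against wild type, the homozygous library lacked a peak at 2 of 27 wild-type starts, Pcdha5 and Pcdhb17, which is 7.41% (exact interval 0.910 to 24.3%) beside 7.28% of other genes with a wild-type promoter peak. That share is near the background and is no result about the members. With lists of equal length the count was 1 of 26, Pcdha5. With peaks at or above the median −log10 q of their own list it was 5 of 19, of which 1, Pcdha5, was among the 2. In the other direction, 5 of the 30 homozygous starts had no wild-type peak (Pcdha12, Pcdhb4, Pcdhb8, Pcdhb18 and Pcdhb21), 16.7% (5.64 to 34.7%) beside 2.49% of other genes. With 25 starts in common, the homozygous library had 3 more acetylated members than wild type although its list was shorter. The 5 starts had 16 to 25 reads in the homozygous clone. At the median −log10 q all 5 of these calls were lost, and 3 other starts (Pcdhac2, Pcdhb20 and Pcdhgb1) were in the homozygous set and not in the wild-type one. The order of the totals also turned there, with 17 homozygous against 19 wild-type starts.

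The heterozygous library lacked a peak at 7 of the 27 wild-type starts, 25.9% (11.1 to 46.3%), where the background was 7.64%. These were Pcdha5, Pcdha7, Pcdhac1, Pcdhb14, Pcdhb17, Pcdhb20 and Pcdhga5. Conversely 3 of 23 heterozygous starts (Pcdhb4, Pcdhb9 and Pcdhb19) had no wild-type peak, 13.0% (2.78 to 33.6%) beside 1.99%. The homozygous against the heterozygous library gave 9 of 30 starts absent from the latter, 30.0% (14.7 to 49.4%) beside 5.16%: Pcdha7, Pcdha12, Pcdhac1, Pcdhb8, Pcdhb14, Pcdhb18, Pcdhb20, Pcdhb21 and Pcdhga5. In reverse, Pcdhb9 and Pcdhb19 were 2 of 23, 8.70% (1.07 to 28.0%) beside 4.30%. This count was 1, Pcdhb9, with a −log10 p of at least 10. At the median −log10 q both calls were lost and 5 other starts took their place. There, Pcdha5, Pcdha7, Pcdhb14 and Pcdhga5 remained of the 7 wild-type starts without a heterozygous peak, and Pcdha7, Pcdhb14, Pcdhb20 and Pcdhga5 of the 9 homozygous ones. None remained of the 3 heterozygous starts without a wild-type peak. These 3 comparisons share libraries and are not independent of each other.

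Over the 3 libraries, 14 of the 34 members acetylated anywhere were so in only 1 or 2 libraries, 41.2% (24.6 to 59.3%), against 13.6% of other genes. The members' promoter peaks also ranked lower than those of other genes, as a description without a test. Their median −log10 q stood at percentile 65.9 of the wild-type, 57.4 of the heterozygous and 53.8 of the homozygous list, against 84.4, 79.5 and 81.7 for the strongest promoter peak of other genes. The part of this difference in peak strength in the counts of one-sided starts was not tested. Within the members, those in all 3 libraries had median pile-ups of 48 reads in the wild-type clone, 41.5 in the heterozygous and 47 in the homozygous clone, and those in 1 or 2 libraries 28, 16 and 24.5. Both sets were formed from the calls of these same peaks, so the lower medians are no separate result. The ranges of these sets overlapped in all 3 libraries, at 21 to 116 against 18 to 52 reads in the wild-type clone, 20 to 78 against 14 to 27 in the heterozygous and 18 to 112 against 16 to 61 in the homozygous clone.

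The members' peaks had lower median widths than the promoter peaks of other genes. They lay mostly downstream of the start, taken as the lower gene coordinate. Exactly 1 peak met the window around the start in 26 of 27 acetylated members in the wild-type clone, 22 of 23 in the heterozygous and 25 of 30 in the homozygous clone (96.3%, 95.7% and 83.3%), against 54.7%, 56.6% and 54.7% of other acetylated genes. The start position itself was covered in 66.7%, 56.5% and 73.3% of acetylated members and in 55.8%, 51.8% and 54.6% of other acetylated genes. Median widths of the strongest peak were 560, 585 and 563.5 bp, against 802, 688 and 763 bp. Over all peaks of each list the median width was 509, 474 and 489 bp. The summit was downstream of the start in 26 of 27, 23 of 23 and 29 of 30 members, at a median distance of 183, 222 and 150.5 bp. Of other genes 71.8%, 70.5% and 71.9% had a downstream summit. Peaks covered a median of only 29, 25 and 39.5 bp of the 1000 bp upstream of the members' starts, against 404, 346 and 366 bp in other genes. Downstream the medians were 518, 501 and 529.5 bp against 640, 563 and 624 bp. By fold enrichment the members were close to other promoters, with medians of 9.31, 8.93 and 8.91 against 8.998, 8.86 and 9.72.

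**Figure D3:**
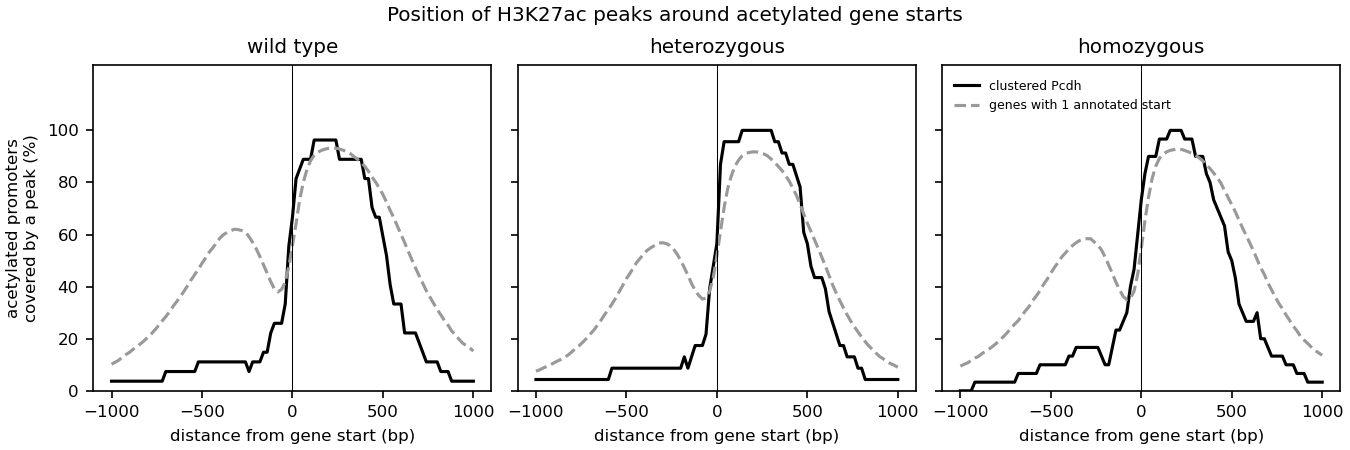
Curves give the percentage of acetylated starts covered by an H3K27ac peak at each distance in bp from the start (negative is upstream), for clustered protocadherins (solid black) and for other genes with 1 annotated start (dashed grey), with 1 panel per library. At 300 bp upstream 11.1%, 8.70% and 16.7% of the protocadherin starts were covered, against 61.9%, 56.8% and 58.4% of the others, while at 200 bp downstream every curve stands at 91.7% or more.

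Besides the starts of members, 18 regions of the window had a peak in at least 1 library, and 6 of them in all 3. By −log10 q, the strongest in each library lay in the interval between the alpha and the beta cluster, at 37217441 to 37218316. This region began 28544 bp past the last alpha gene end, that of Pcdha6. It had pile-ups of 207, 179 and 214 reads and folds of 11.9, 14.2 and 14.8, and its −log10 q stood at percentile 99.5 in each of the 3 lists. The alpha cluster is known to have an enhancer downstream of its constant exons and another between them. Whether the regions described here are these elements was not examined. A weaker region of the same interval at 37236735 to 37237210 had 47 reads in the wild-type clone and 15 in the heterozygous clone, with folds of 12.2 and 5.85, and no peak in the homozygous clone.

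Upstream of the alpha cluster's end, between Pcdhac2 and the shared last exon, 3 regions were found and none in all libraries. The region at 37178103 to 37179026 had 50 reads in the wild-type clone, 31 in the heterozygous clone and no peak in the homozygous one. The next, at 37179755 to 37180714, had 35 reads in the wild-type clone, 50 in the homozygous clone and no peak in the heterozygous one. The third, at 37149480 to 37149724, had 36 reads in the homozygous clone alone. In this stretch the libraries thus differed in which of neighbouring positions was called.

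Past the gamma cluster, 7 regions lay inside Diaph1, which encodes an actin-nucleating formin and is the next gene past the last gamma exon. Enhancers of the gamma and beta genes are known from the DNA downstream of the gamma cluster. The region with the most reads in Diaph1, at 37878962 to 37880213, was 37089 bp past the gamma end and had 200, 189 and 196 reads with folds of 5.55, 5.78 and 5.71. Flanking regions at 37877559 to 37878074 and 37876856 to 37877288 were also in all 3 libraries. The first had 77, 103 and 87 reads with low folds of 2.47, 3.48 and 2.80. The second had 73, 69 and 72 reads with folds of 2.37, 2.33 and 2.34. None of these folds stood above percentile 8.85 of its list. Closer to the cluster, the region at 37851533 to 37852113 had no heterozygous peak. It had 70 reads (fold 5.68) in the wild-type clone and 42 reads (fold 3.35) in the homozygous one. Directly beside it, at 37852339 to 37853531, wild type had 61 reads and the heterozygous library 108, with no homozygous peak. The folds there were 4.99 and 5.71. The last region, at 37883880 to 37884171, had 65 and 66 reads in the wild-type clone and the heterozygous library and no peak in the homozygous one.

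**Figure D4:**
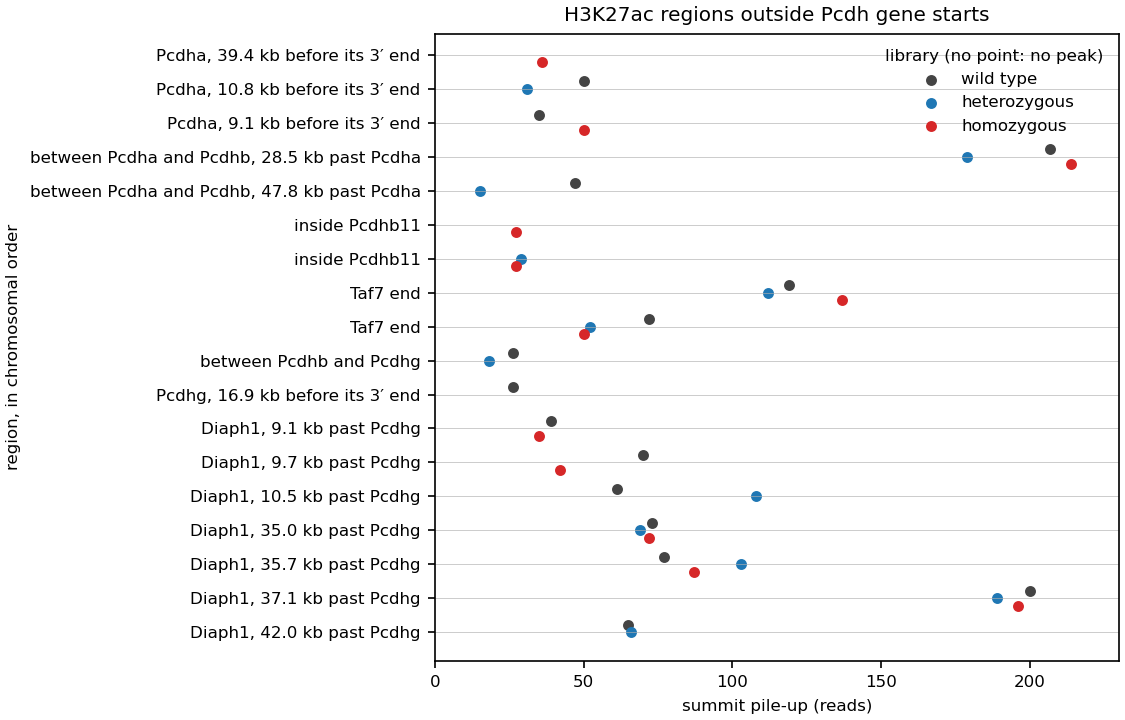
Points give the summit pile-up in reads (not scaled for depth) of the 18 regions outside protocadherin starts, in chromosomal order from top to bottom, for the 3 libraries. The region 28544 bp past the alpha cluster and that in Diaph1 37089 bp past the gamma cluster stand out with 179 to 214 reads in every library, and a missing point means that no peak was listed.

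Genes around and between the clusters had the same calls at their ends in the 3 libraries. They were counted at either gene end, members at the start alone, so the calls are not of like measure. Inside Diaph1 only 3 of the 7 regions were in all 3 libraries. Taf7, which encodes a subunit of the general transcription factor TFIID and lies between the beta and gamma clusters, had a peak at its upper end with 119, 112 and 137 reads. Slc25a2, a mitochondrial ornithine carrier gene next to it, had none in any library. Of 13 neighbouring genes 10 had a peak at a gene end in each library, and Dnd1, Slc25a2 and Arap3 had none. A list of 20 regulators of protocadherin promoters held 15 with an annotated start in the table used, and 14 of these had a promoter peak in all 3 libraries, including the insulator protein gene Ctcf, the cohesin genes Smc1a and Smc3, the DNA methyltransferase genes Dnmt1, Dnmt3a and Dnmt3b, and Smchd1, a silencer of the clusters. Tet1 alone had none. Of other genes 45.3% had a promoter peak in all 3 libraries, counted at 1 start each, whereas list genes were counted at any annotated start. Of 21 non-clustered protocadherins and large cadherins listed, 16 had an annotated start. Of these, 8 had a promoter peak in the wild-type clone, 5 in the heterozygous and 8 in the homozygous clone. The share among other genes was 50.7%, 47.7% and 48.2%. Pcdh19 and Fat4 had one in the wild-type clone and the homozygous library but not in the heterozygous one. Pcdh15 had one in the wild-type clone alone, and Pcdh7 in the homozygous clone alone. Of 8 genes for known binding or signalling partners 8, 7 and 7 had a promoter peak, the exception in both knockouts being Nlgn1, a neuroligin gene.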

How the data were processed

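H3K27ac ChIP-seq of 3 MIN6 clones, 1 library each, was sequenced as single-end reads of 75 bp, per the labels. Reads were demultiplexed with bcl2fastq and peaks called with MACS2 on mm10, per the submitters' processing notes. Peak names in each list carry 1 library's name, so calling was per library. Versions, aligner, control sample and the threshold for calling were not given in sources used here. The wild-type peak names carry the tag GAL4, whose meaning is also not given. The genotype of that clone thus rests on the labels alone, and which guide it received is not settled. Each deposited list gives a position, a summit, a fold enrichment (a ratio to the local background within the library), −log10 p and −log10 q, and a score. The deposited score is 10 times the −log10 q cut to a whole number for 41489 of 41490, 31365 of 31365 and 34295 of 34298 peaks and was not used further.

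Pile-up and background were solved from the fold, read as the ratio of both after adding 1 to each, and from p, read as the upper Poisson tail, and gave a whole pile-up to within 0.001 of the deposited −log10 p for 41487, 31362 and 34297 peaks. The solver and the overlap search were tested on simulated data. Where several peaks met a window, the one with the highest −log10 q gave the member's values. Percentiles are ranks within 1 list. The gene table gives no strand, and members' starts are the lower gene coordinates. For alpha and gamma genes this rests on their upper ends, shared except at Pcdha6 and Pcdhgb8. For the 22 beta genes it rests on background knowledge. Other genes are those of RefSeq's promoter table (GRCm38.p6) with 1 start, none of them on chromosome 18. Lists of genes were counted at any annotated start, and neighbours at either gene end. All members were to be named, and those with a promoter peak given with values. Members and lists were chosen with earlier results of these data known. Alternatives were 3 stricter peak sets, windows of 500 and 2000 bp, and the summit in place of any overlap. Python 3.11.15, numpy 2.4.6, pandas 2.3.3, scipy 1.17.1 and matplotlib 3.10.9 were used.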

Additional observations from a re-analysis of the deposited data

How the results depend on the processing

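Windows of 500 or 2000 bp, or asking for the summit in the window, changed none of the 80 calls of a peak at a member's start. With lists of equal length (31365 peaks each) the wild-type call at Pcdhb17 was lost, so that 1 start in place of 2 was in wild type and not in the homozygous library. A −log10 p of at least 10 removed the heterozygous call at Pcdhb19, leaving 1 start in place of 2 in the heterozygous and not in the homozygous library. In either setting the same 20 members were acetylated in all 3 libraries. With peaks at or above their list's median −log10 q, 28 calls were lost, 13 of them homozygous, and 10 members remained in all 3 libraries. This median was 22.6 in the homozygous list against 19.0 in the wild-type and 18.5 in the heterozygous one, so the homozygous cut was the strictest. The homozygous count was then 17 starts in place of 30, starts in wild type and not in the homozygous library 5, the reverse 3 (none of them among the 5 with all peaks), and starts in the heterozygous and not in the homozygous library 5. The window then held 27 wild-type, 23 heterozygous and 20 homozygous peaks. The other counts of starts per library and per pair stayed within 1.5 times their value. No paired analysis was possible because each genotype had 1 library and no replicate could be left out. What depth limits at members without a peak was not tested, since read totals were not given. The weakest listed member peak had 14 reads.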

Other observations

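Second peaks at a member's start were unevenly spread. The homozygous library had them at 5 members. Its second peaks lay downstream at Pcdha7 (summit 845 bp from the start, 19 reads), Pcdha8 (763 bp, 44 reads) and Pcdhb20 (652 bp, 25 reads), and upstream at Pcdhac1 and at Pcdhgc3 (summit at -371 bp, 27 reads). Wild type had a second peak only at Pcdhb10 (648 bp downstream, 18 reads), and the heterozygous library only at Pcdhgc3 (summit at -336 bp, 54 reads). Inside the single-exon gene Pcdhb11, at 37423347 to 37423652, both knockout libraries had a weak peak of 29 and 27 reads with folds of 3.45 and 4.13, and wild type had none. The homozygous library had another there, at 37423020 to 37423219, with 27 reads. Of peaks outside the promoter windows that one was nearest to a start, 1602 bp from the start of Pcdhb11, and the farthest inside was the second peak of Pcdha7, 734 bp away.

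Inside the gamma cluster but at no start, wild type alone had a peak at 37824962 to 37825847, between the start of Pcdhgc5 and the shared gamma end, with 26 reads and a fold of 5.60. Between the beta and gamma clusters, past Taf7, a region at 37655633 to 37656143 had 26 reads in wild type, 18 in the heterozygous library and no homozygous peak.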
